A study of Mus musculus with 4 samples.

Results

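The comparison of *Clock*Δ19 mutant with wild-type (WT) liver at zeitgeber time 14 (ZT14) rested on 2 microRNA (miRNA) arrays, 1 for each genotype, out of the 4 arrays of the series. ZT14 is 14 h after lights-on, 2 h into the dark phase. The arrays carried probes for 611 mouse miRNAs, of which 157 were called detected by the scanner software on at least 1 of the 2 arrays and 123 on both. The mice were males of 6 to 8 weeks, caged singly with free food and water for 2 weeks in cycles of 12 h of light and 12 h of dark. Liver RNA of 3 mice was mixed for each array, and the other 2 arrays held the same genotypes at ZT2. WT stands for mice with no named allele, and mutant for mice of the *Clock*Δ19 line. The zygosity of the mutation and the strain background were not given in the sources used here. Because each condition was 1 pool on 1 array, no test between genotypes could be made. The errors given below are SDs of repeated spots on the array and contain no variation between mice. In bulk liver RNA, fewer cells of a type and less RNA per cell cannot be told apart.

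CLOCK pairs with BMAL1 to switch on genes through E-box elements, and the Δ19 protein can bind its partner but activates transcription poorly. miRNAs are short RNAs that guide Argonaute proteins to messenger RNAs, mainly by pairing of the seed, bases 2 to 8 from the 5′ end. miRNAs with the same seed form a family that can share targets, and both arms of a hairpin precursor can each give a mature miRNA. Liver miRNAs control lipid handling, growth and fibrosis, and miR-122 is the miRNA that marks hepatocytes.

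The sequences of the miRNAs on which the comparison turned were taken from RefSeq annotation of GRCm38.p6, where 122 of the 157 detected miRNAs had a match by name. Capitals mark the seed. The first set carries long runs of alternating GU or AC, or the partner arm of such a sequence, and all of its members had mutant signals lower by 2-fold or more.
miR-574-5p: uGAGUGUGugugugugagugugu
miR-574-3p: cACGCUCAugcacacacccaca
miR-1187: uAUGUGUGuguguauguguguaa
miR-467f: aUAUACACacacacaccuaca
miR-466i: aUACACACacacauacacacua

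The next set was also at least 2-fold lower and has no such run.
miR-706: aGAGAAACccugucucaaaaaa
miR-877*: uGUCCUCUucucccuccuccca
miR-802: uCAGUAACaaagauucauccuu

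The last set had the highest mutant over WT ratios, and miR-429 is shown because it has the seed of miR-200b.
miR-200b: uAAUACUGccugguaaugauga
miR-429: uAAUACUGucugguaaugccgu
miR-200a: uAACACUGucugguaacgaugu
miR-34a: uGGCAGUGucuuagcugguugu
miR-221: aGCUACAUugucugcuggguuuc

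The arms of miR-574 lie at chr5:64970328-64970350 and chr5:64970364-64970385 on the + strand, within the annotated spans of Fam114a1 and Tlr6. miR-1187 lies at chr5:82798964-82798986 on the − strand and in no other annotated gene. miR-467f lies at chr11:69635419-69635439 on the − strand within Fxr2, and miR-466i at chr13:17747552-17747573 on the + strand within Cdk13. miR-706 lies at chr6:120034290-120034311 on the − strand within Wnk1, miR-877* at chr17:35960731-35960752 on the − strand within Abcf1, and miR-802 at chr16:93369737-93369758 on the + strand. miR-200b, miR-200a and miR-429 lie together on the − strand, at chr4:156055685-156055706, chr4:156054911-156054932 and chr4:156053916-156053937. miR-34a lies at chr4:150068473-150068494 on the + strand and miR-221 at chrX:19146307-19146329 on the − strand. Spans are those of whole genes, and the annotation used here did not say whether a locus was exonic or intronic. miR-574-5p and miR-1187 share GU repeats, and miR-467f and miR-466i share AC repeats, so the members of each pair are not independent readings.

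The arrays were alike in the number of miRNAs detected, with 138 in WT against 142 in the mutant, but not in brightness. The 75th percentile of signal over the 123 miRNAs that every array detected was 339.9 units in WT against 535.6 in the mutant at ZT14, a 1.58-fold difference, against 536.6 and 503.4 units at ZT2. The spike-in control probes went the other way, with a geometric mean of 6773 units in WT against 5978 in the mutant. No mouse spot was saturated, and the median coefficient of variation of repeated spots was 6.18% in WT and 6.33% in the mutant. Each miRNA's signal was divided by its array's 75th percentile, giving a scaled signal in which 1 equals that percentile, and ratios are log2 of mutant over WT scaled signal. Without this scaling the median ratio of the 123 miRNAs was 0.63, and with it −0.03.

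Most miRNAs had similar scaled signals in both genotypes. Of the 123 miRNAs detected on both arrays, 13 were at least 1.5-fold lower in mutant liver (10.6%) and 3 at least 1.5-fold higher (2.44%), while 54 had ratios above 0 and 69 below. The middle 50% of ratios lay between −0.23 and 0.12, and the ratio was larger than its own spot SD for 74 miRNAs and larger than 2 spot SDs for 38. At least 2-fold lower signal in the mutant was found for 12 of the 157 detected miRNAs (7.64%), 8 of them measured on both arrays (6.50% of 123) and 4 detected in WT only. At least 2-fold higher signal was found for 0 of 157 (0%), and the largest increase was 1.59-fold. The even comparison is that over the 123 miRNAs on both arrays, with 8 lower and 0 higher, since the 19 miRNAs detected in the mutant only were too dim to give a bound. These counts depend on scaling: on unscaled signals, 6 miRNAs were at least 2-fold lower and 9 at least 2-fold higher, and scaled to the spike-in probes, 6 and 22. These scalings move every ratio by 1 constant, so they change the counts but not the order of the miRNAs measured on both arrays.

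**Figure D1:**
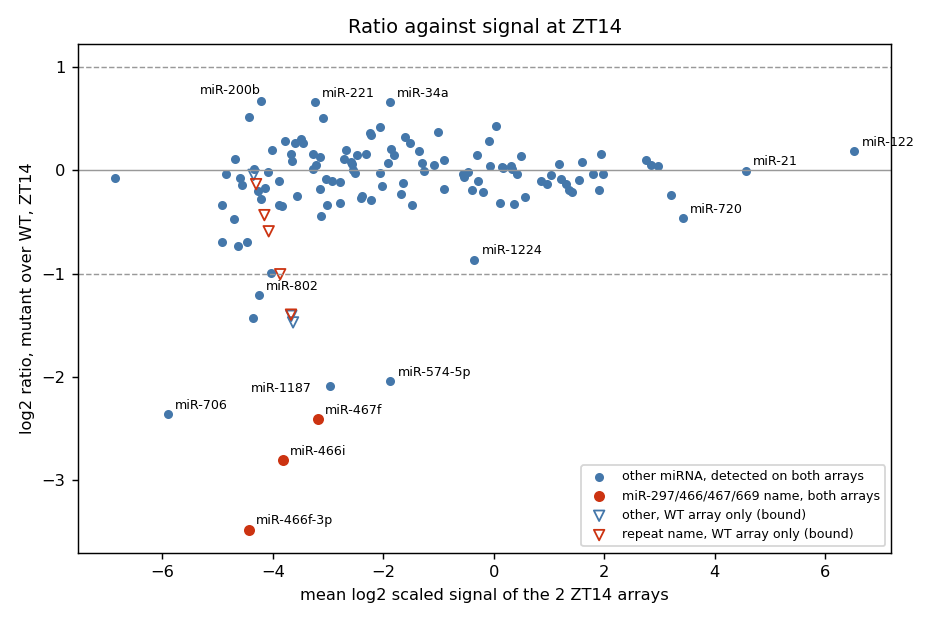
Each point is a miRNA at ZT14, with the mean log2 scaled signal of the 2 arrays on the x axis and the log2 ratio of mutant over WT on the y axis. Dashed lines mark 2-fold, filled points are the 123 miRNAs detected on both arrays, and open triangles are bounds for miRNAs detected in WT only. No point reaches the upper dashed line with this scaling, while 8 filled points lie under the lower one.

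miR-574-5p was the brightest-scanned of the miRNAs that were at least 2-fold lower, and every one of its spots was well above background on the mutant array. Its scaled signal was 0.553 in WT against 0.134 in the mutant at ZT14, and 0.576 and 0.513 at ZT2. The mutant ZT14 array thus stood apart from the other 3, which lay close together. The ratio at ZT14 was −2.04 ± 0.13 (SD of repeated spots), a 4.11-fold lower signal, against −0.17 at ZT2. Its 2 probes gave −2.13 and −1.98. The unscaled signal was also lower, at 188 units in WT against 72.0 in the mutant.

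miR-1187, the other GU-rich miRNA, had scaled signals of 0.265 in WT against 0.0623 in the mutant at ZT14, and 0.250 and 0.224 at ZT2. Here too the mutant ZT14 array was the only low one. The ratio was −2.09 ± 0.23 (SD of repeated spots), with probes at −1.94 and −2.20, and 85% of its spots were well above background on the mutant array. These were the only 2 of the 8 measured miRNAs with most spots well above background in the mutant. For the other 6, the mutant signal was near the background of the array and the size of the ratio is uncertain. For these, a lower limit was computed by setting the mutant at the lowest signal among miRNAs that had most spots well above background, 25.9 units.

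The AC-rich miRNAs of the miR-466 and miR-467 group come from large families of repeat-associated loci in the mouse. miR-467f had scaled signals of 0.254 in WT against 0.0477 in the mutant at ZT14, and 0.278 and 0.246 at ZT2. miR-466i had 0.188 in WT against 0.0268 in the mutant at ZT14, and 0.234 and 0.198 at ZT2. miR-466f-3p had 0.154 and 0.0138 at ZT14, and 0.210 and 0.171 at ZT2. In all 3 the mutant ZT14 array was the low one and the other 3 arrays were similar. Their ratios were −2.41 ± 0.22, −2.81 ± 0.35 and −3.48 ± 0.67 (SD of repeated spots), and with the mutant at the limit the WT signal was at least 5.26-fold, 3.89-fold and 3.19-fold higher. The scanner's own summed signal per miRNA gave ratios of the opposite sign for these 3, at 3.28 for miR-467f, 3.69 for miR-466i and 3.53 for miR-466f-3p. That sum was over 1.5 times the sum of the probe signals for 39 detected miRNAs on the mutant array, these 3 among them, and for 26 on the WT array.

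miR-802, a hepatocyte miRNA linked to glucose metabolism, differed from all the others of the 12 in its ZT2 values. Its scaled signal was 0.0798 in WT against 0.0345 in the mutant at ZT14, and 0.129 and 0.0358 at ZT2. Both mutant arrays were therefore below both WT arrays. The ratios were −1.21 ± 0.37 at ZT14 and −1.85 at ZT2, and the 2 probes gave −1.18 and −1.22 at ZT14. The mutant signal at ZT14, 18.5 units, was under the limit of 25.9, and with the mutant at that limit the WT signal was 1.65-fold higher, short of 2-fold. The scanner's summed signal gave a ratio of 0.68. Among the 12, miR-802 was the 1 that was also at least 2-fold lower at ZT2, and 10 were within 1.5-fold there.

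miR-877*, the 3′ arm of a hairpin that is itself an intron of Abcf1, had scaled signals of 0.0797 in WT against 0.0296 in the mutant at ZT14, and 0.0786 and 0.0663 at ZT2. Its ratio was −1.43 ± 0.33 (SD of repeated spots), and with the mutant at the limit the WT signal was 1.65-fold higher, also short of 2-fold. miR-706 had 0.0380 in WT against 0.00738 in the mutant at ZT14, and a ratio of −2.36 ± 1.62. Its spot SD was the widest of the 8, and its signal was under the limit on both arrays, so the fold is not given. Just outside the 2-fold limit were miR-689, with scaled signals of 0.0861 in WT against 0.0431 in the mutant, and the mirtron miR-1224, at −0.86 ± 0.07 with 360 and 311 units.

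The 4 miRNAs detected in WT only that passed 2-fold are given as bounds. For miR-574-3p, the partner arm of miR-574-5p, the mutant was at least 2.78-fold lower, with signals of 45.6 units in WT against 3.08 in the mutant at ZT14, and 86.8 and 71.6 at ZT2. Both arms of this precursor were thus low on the same array. miR-1196 was at least 2.66-fold lower, with 43.6 and 9.36 units at ZT14 and 149 and 108 at ZT2. miR-669c and miR-466g, of the repeat-associated group, were at least 2.63-fold and 2.01-fold lower, with WT signals of 43.3 and 33.0 units and mutant signals of 13.8 and −0.866. In each of the 12 the scaled signal of the mutant at ZT14 was the lowest of the 4 arrays, which is partly set by how the 12 were chosen. For miR-802 it was barely below the mutant at ZT2, at 0.0345 against 0.0358.

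**Figure D2:**
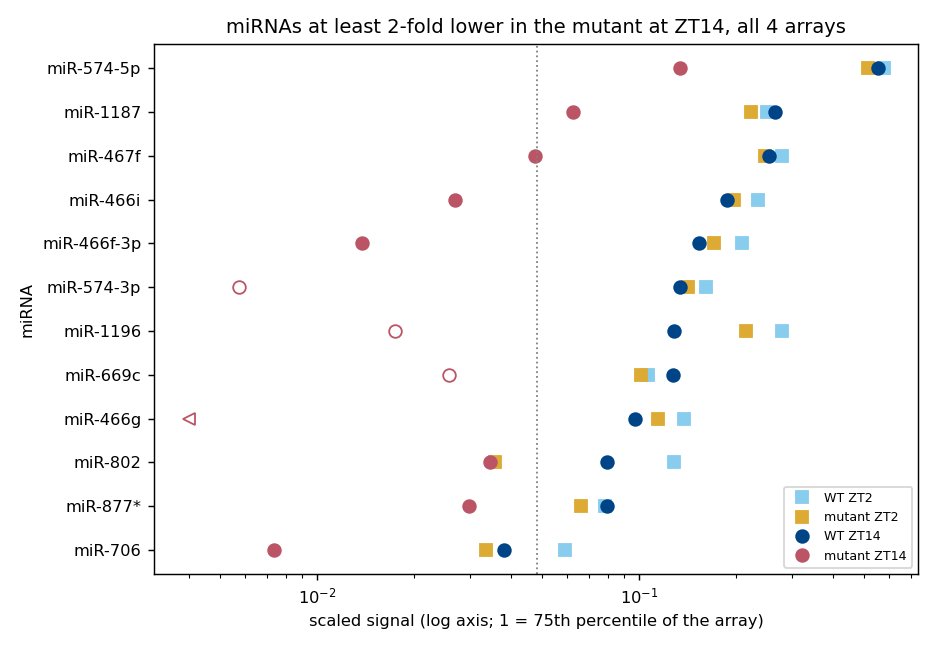
Scaled signal, on a log axis, of the 12 miRNAs that were at least 2-fold lower, with 1 point for each of the 4 arrays. Open red circles mark miRNAs not detected in the mutant at ZT14, the red triangle marks a signal below 0, and the dotted line is the limit of 25.9 units on that array. For 10 of the 12 miRNAs the ZT2 arrays are within 1.5-fold of each other and the mutant ZT14 array lies apart.

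What the lower miRNAs had in common was sought in their sequences and names. A run of at least 8 bases of alternating GU or AC was found in 4 of the detected miRNAs that had a RefSeq sequence, with run lengths of 13 in miR-574-5p, 12 in miR-467f, 11 in miR-466i and 10 in miR-1187. All 4 were at least 2-fold lower, with a median ratio of −2.25 at ZT14 and −0.17 at ZT2. Of the 118 detected miRNAs with a sequence and no such run, 4 were at least 2-fold lower. The split covers only the 122 with a sequence, while 7.64% of all 157 were lower. miR-466f-3p, miR-669c, miR-466g and miR-1196, also at least 2-fold lower, had no sequence to class. Since the feature was sought in the lower miRNAs themselves, its count among them is only a description. By name, 39 miRNAs of the array belong to the repeat-associated groups miR-297, miR-466, miR-467 and miR-669. Only 9 of these were detected at ZT14, 3 on both arrays and 6 in WT only. Those 3 are miR-467f, miR-466i and miR-466f-3p described above. The other 6 entered through the WT array alone and could only be level or lower in the mutant, so nothing is read from a count or median over the 9. For GC content and the ratio, over the 102 miRNAs measured on both arrays with a sequence, Spearman's rho was −0.03, given as a description since miRNAs of the same arrays are not independent.

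Higher signals in the mutant were modest with the scaling used here. The 3 miRNAs that were at least 1.5-fold higher were miR-200b, miR-34a and miR-221. miR-34a, a target of p53 that represses Sirt1, had scaled signals of 0.215 in WT against 0.340 in the mutant at ZT14, and 0.269 and 0.395 at ZT2. The mutant was the higher at both times. Its ratios were 0.66 ± 0.17 (SD of repeated spots) at ZT14 and 0.56 at ZT2. miR-221, which represses the cell-cycle inhibitor p27, had 0.0840 in WT against 0.133 in the mutant at ZT14, and 0.0940 and 0.140 at ZT2. Its ratios were 0.66 ± 0.18 and 0.58. miR-100 was alike, at 0.50 ± 0.18 and 0.61. Normexp background correction lowered the ZT14 ratios to 0.29 for miR-34a, 0.01 for miR-221 and −0.02 for miR-100, and the scanner's summed signal gave −2.79 for miR-100. Normexp here added 50 units to every spot, which draws dim miRNAs toward a shared ratio. Its median over the miRNAs on both arrays, of every brightness, was −0.17.

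miR-200b and miR-200a, epithelial miRNAs that repress the Zeb factors, were high in the mutant at ZT14 and low at ZT2. The scaled signal of miR-200b was 0.0426 in WT against 0.0678 in the mutant at ZT14, and 0.0930 and 0.0491 at ZT2, so that WT ZT2 was the highest of the 4 arrays. Its ratio at ZT14 was 0.67 ± 0.43 (SD of repeated spots) from signals of 14.5 and 36.3 units. miR-200a gave 0.52 ± 0.32, and miR-429, from the same cluster, was detected in the mutant only, with 16.8 units against 7.48. With normexp the ratios of miR-200b and miR-200a were −0.16 and −0.20, and the median in that setting was −0.17. That median covers miRNAs of every brightness, so it does not place miR-200b and miR-200a among dim ones. Of other dim miRNAs, let-7b* was at −0.45 with normexp, miR-125a-5p at −0.40 and miR-30e* at −0.17. These miRNAs were close to background on the WT array.

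miR-494 came next, at 0.43 ± 0.10, with scaled signals of 0.887 in WT against 1.20 in the mutant at ZT14, and 0.960 and 0.688 at ZT2. miR-195 and miR-497, which share a seed and a locus on chromosome 11, were at 0.42 and 0.37, and miR-20a and miR-20b of the miR-17 family at 0.37 and 0.34. With normexp these 4 were at 0.10, 0.05, 0.22 and 0.04. Over both directions, of the 14 miRNAs past 1.5-fold with signals above 0 for all of 2 or more probes, every probe lay on the same side in 14. Most of these were lower in the mutant, and none of the miRNAs of this paragraph is among them. Each ratio is built from the average of these same probes, so the agreement is a description and not independent support. miRNAs with a probe below 0, such as miR-466f-3p and miR-706, were left out of this count.

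Most miRNA families, grouped by seed or by locus, had medians close to the overall median. Members of the listed families made up 85 of the 157 detected miRNAs, and 1 of these, miR-802, was at least 2-fold lower, against 7.64% of all detected. Among the 57 detected miRNAs in no list and outside the repeat-associated groups, 6 were at least 2-fold lower. The let-7 family, which restrains growth genes, had 9 of 9 members on both arrays, between −0.10 for let-7i and 0.16 for let-7c, with a median of 0.05. That median lay above the median of all 123 miRNAs in 12 of 13 processing settings and below it with quantile normalization.

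All members of the miR-30 family were below 0. The 5 lay between −0.21 for miR-30b and −0.13 for miR-30d, each beyond its own spot SD, with a median of −0.13. This median was below that of all miRNAs in 13 of 13 settings, by 0.01 to 0.17. It was above 0 where no scaling, the spike-in probes, all mouse miRNAs or the authors' table set the scale, and at 0 with quantile normalization. miR-30a had scaled signals of 2.59 in WT against 2.36 in the mutant, and miR-30b 0.938 and 0.809. The collagen-repressing miR-29 family had a median of −0.19, from −0.25 for miR-29c to 0.03 for miR-29b, and miR-26 one of −0.15. Both moved to the other side of the overall median with normexp. There the overall median itself fell from −0.03 to −0.17, while miR-29a was at −0.13, and miR-26a and miR-26b at −0.14 and −0.06. The miR-378 arms, encoded within Ppargc1b, were at −0.33 ± 0.06 and −0.47 ± 0.44, and their median stayed below the overall median in all 13 settings.

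On the other side, the growth-promoting miR-17 family ran from −0.15 for miR-106b to 0.37 for miR-20a, with a median of 0.21. The miR-15/16 family ran from −0.07 for miR-15b to 0.42 for miR-195, with a median of 0.11. The medians of both families lay above that of all miRNAs in 13 of 13 settings. miR-99a and miR-100 had a median of 0.38, which fell below the overall median with the scanner's summed signal. miR-125a-5p and miR-125b-5p, which share a seed, were on opposite sides, at −0.34 and 0.29. The medians of the miR-23, miR-27, miR-103 and miR-148 families lay between −0.01 and 0.04. Of the miR-181 family, 0 of 4 members were detected, and miR-33, which is encoded in Srebf2 and represses the cholesterol exporter Abca1, was detected in the mutant only, at 14.2 units against 6.21.

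**Figure D3:**
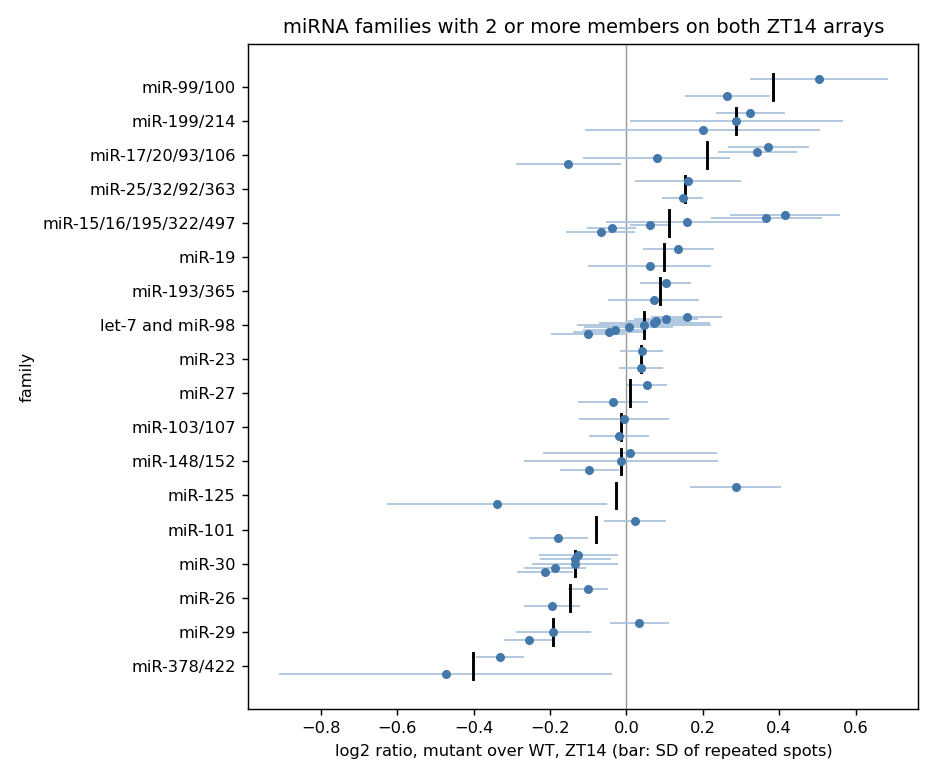
The log2 ratio of mutant over WT at ZT14 for each member of the 18 families with 2 or more members detected on both arrays, as points with bars of 1 SD of repeated spots, and the family median as a black line. All members lie within 1.5-fold of no difference, from −0.47 for miR-378* to 0.50 for miR-100. Relative to the overall median, miR-26, miR-29, miR-101 and the miR-199a family change side with normexp, where that median itself falls to −0.17. The let-7 family does so with quantile normalization, and miR-99/100, miR-27, miR-103, miR-125 and miR-148 in 1 or more settings.

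Members of a cluster, within 10000 bases of each other, were close to one another in some cases and not in others, and several also share a seed or belong to overlapping clusters. miR-497 and miR-195 differed by 0.05, and miR-23a, miR-27a and miR-24 on chromosome 8 spanned 0.04 around a median of 0.04. Wider were miR-99b, let-7e and miR-125a-5p, whose 2 measured members differed by 0.41, and miR-25, miR-93 and miR-106b, which spanned 0.31. In the miR-17 to miR-92a cluster on chromosome 14, 4 of 6 members were measured on both arrays and all 4 were above 0, from 0.06 for miR-19a to 0.37 for miR-20a. Arms of a precursor were also compared. miR-30e was at −0.19 and its partner miR-30e* at 0.27, a gap of 0.45 with a combined spot SD of 0.23, and miR-30a and miR-30a* differed by 0.28 with an SD of 0.18. With normexp the miR-30e arms were at −0.18 and −0.17, and the miR-30a arms at −0.08 and −0.09. That setting added 50 units to every spot, while on the WT array miR-30e* read 28.1 units and miR-30a* 57.8. It draws dim arms toward a shared ratio, so it cannot decide whether the gaps hold, and nothing is read from their closing. let-7b was at 0.08 and let-7b* at −0.69, but the signal of let-7b* was under the limit on both arrays, and the scanner's summed signal gave it 0.02.

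Across signal levels, the spread of ratios was wider among dim miRNAs. The 123 miRNAs were split into 5 classes by mean scaled signal, a ranking that mixes abundance with probe brightness. The SD of the ratios was 0.91 in the dimmest class and then 0.87, 0.49, 0.26 and 0.16, while the median SD of repeated spots went from 0.40 to 0.08. The middle 50% of ratios, less moved by the 2-fold lower miRNAs, spanned 0.67, 0.48, 0.33, 0.20 and 0.24. The median ratio was −0.24 in the dimmest class and then −0.09, 0.08, 0.02 and −0.05. At ZT2 the same classes had medians of −0.30, −0.01, 0.00, −0.01 and 0.09, with SDs from 0.47 to 0.24. The 8 measured miRNAs at least 2-fold lower fell into the 3 dimmest classes, 4, 3 and 1 of them. The gap of 0.19 between the brightest and dimmest class turned to −0.36 with quantile normalization, −0.24 with the scanner's summed signal and −0.040 when detection was taken from spots well above background. Without the repeat-associated and 2-fold lower miRNAs, an alternative chosen after seeing the data, it was 0.098.

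In the brightest class, miR-122 had signals of 29413 units in WT against 52644 in the mutant, a ratio of 0.18 after scaling, and at ZT2 0.19. miR-21, which rises with liver injury, was at 0.00. miR-22 was at −0.23 ± 0.08 and miR-720, a probe that reads a transfer RNA fragment, at −0.47 ± 0.05, the largest ratio of that class. At ZT2 those were at 0.05 and 0.09.

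**Figure D4:**
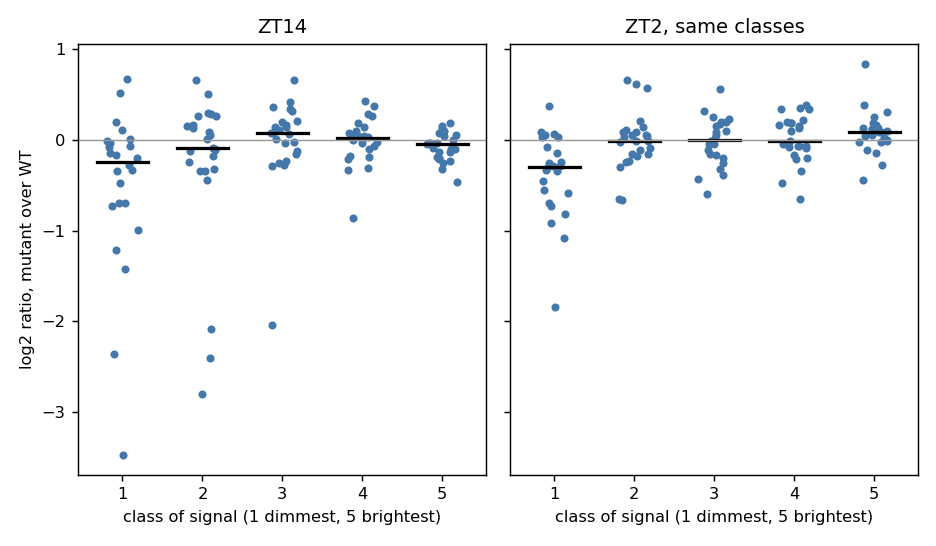
The log2 ratio of mutant over WT for the 123 miRNAs detected on both ZT14 arrays, in 5 classes of mean scaled signal at ZT14 from dimmest (1) to brightest (5), at ZT14 and for the same classes at ZT2. Points are miRNAs and black lines class medians. The spread at ZT14 narrows from an SD of 0.91 to 0.16, and the order of the medians depends on the scaling, with the brightest class below the dimmest after quantile normalization.

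Detection calls differed between the arrays for 15 miRNAs seen with WT RNA alone and 19 seen with mutant RNA alone. All were dim: the highest WT signal of the former was 45.6 units and the highest mutant signal of the latter 25.2 units. For 8 of the 15 the WT signal was above the mutant limit and gave a bound. Of the 19, 0 gave one, and none could, since the limit was higher on the WT array (0.0727 scaled, against 0.0483 on the mutant array) than any of their mutant signals. Those seen in the mutant only included miR-18a, miR-10b, miR-99b, miR-214, miR-301a and miR-96, and 17 of the 19 were detected on both ZT2 arrays.

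Cell-type miRNAs were compared as a check on the tissue. The 3 hepatocyte miRNAs, miR-122, miR-192 and miR-194, were detected on both arrays, with a summed scaled signal of 96.0 in WT against 108 in the mutant at ZT14. Detected on neither ZT14 array were 4 of 4 muscle miRNAs, 3 of 3 neural and 3 of 3 pancreatic ones. The muscle list summed to 0.00438 in WT against 0.00456 in the mutant at ZT14, but to 0.311 and 0.0111 at ZT2. The 2 detected of 3 erythroid miRNAs, miR-451 and miR-144, summed with the third to 2.96 in WT against 2.56 in the mutant at ZT14, against 3.34 and 5.94 at ZT2. The leukocyte list, with 2 of 5 detected, had sums of 0.632 and 0.686 at ZT14, against 1.22 and 0.787 at ZT2. The endothelial pair summed to 3.72 and 3.61, the mesenchymal list with 4 of 5 detected to 0.527 and 0.647, and the bile-duct list with 3 of 5 detected to 0.103 and 0.156. Its miR-200c and miR-141 were not detected. The part of cell composition in any ratio was not tested.

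**Figure D5:**
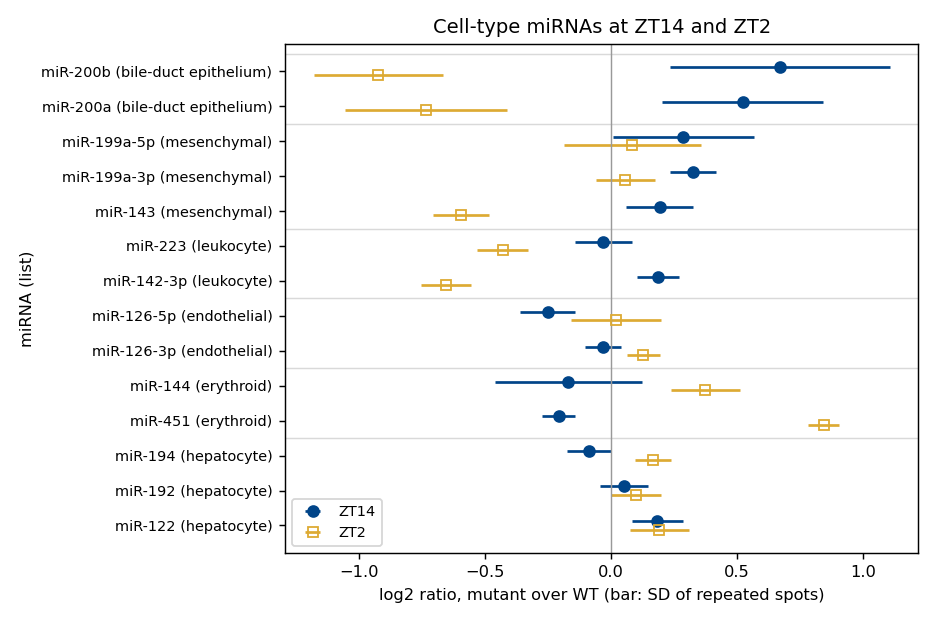
The log2 ratio of mutant over WT for the 14 cell-type miRNAs detected on both ZT14 arrays, with filled circles for ZT14, open squares for ZT2 and bars of 1 SD of repeated spots. At ZT14 miR-200b and miR-200a are the farthest from 0, at 0.67 and 0.52, and at ZT2 they lie below 0. miR-451, miR-144, miR-194, miR-126-3p, miR-126-5p, miR-142-3p and miR-143 also change side between the times with this scaling. With normexp miR-200b and miR-200a were at −0.16 and −0.20 at ZT14. The median of −0.17 in that setting covers miRNAs of every brightness, so it is no reference for dim ones.

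Over the 123 miRNAs, the ratios at ZT14 and ZT2 had a Spearman's rho of 0.39 and a Pearson's r of 0.31, and 0.32 and 0.24 over the 115 miRNAs without the repeat-associated and 2-fold lower ones. The 4 arrays lay on 1 slide and the miRNAs share array and scaling, so these values describe the arrays only.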

How the data were processed

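Per the labels, liver RNA of 3 male mice was mixed for each of 4 conditions, labelled with Cy3 and hybridised to 1 Agilent mouse miRNA array each; the 4 arrays were on 1 slide. The authors deposited scanner files (Feature Extraction 10.7.1.1) with a background-subtracted processed signal intensity for each of 13715 spots, 12220 of them for mouse miRNAs, and a table of log2 values, which was used as an alternative. At ZT14 that table subtracts the same constant on both arrays, so its ratios carry no scaling between them. Columns matched to no sample numbered 0. Depth does not apply to arrays, and their number (1 per condition) limits the precision.

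Spots flagged as outliers (3.37% in WT, 3.35% in the mutant) were left out, spots were averaged per probe and probes per miRNA, and each array was divided by its 75th percentile over the 123 miRNAs that every array detected. Detection was the scanner's gene-level call. A miRNA detected on 1 array was given as a bound against the higher of its own signal and the lowest signal among miRNAs with most spots well above background (24.7 units in WT, 25.9 in the mutant). Spot SDs were propagated on the log2 scale. No test between genotypes was possible, since no condition had a second array; the call was a 2-fold limit. Alternatives were other scalings, background correction (normexp in limma 3.58.1, offset 50), probe summaries, detection calls, floors and thresholds. Scripts ran in Python 3.11.15 (numpy 2.4.6, pandas 2.3.3, statsmodels 0.14.6) and R 4.3.3, and were tested on simulated data.

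The miRNAs named were the 10 largest decreases and increases, the 5 largest bounds each way, the 10 brightest, the extreme and brightest members of each family, those around the 2-fold limit, the 5 arm pairs that differed most, detected cell-type miRNAs and class extremes; others were chosen after their values were seen. The miRNAs, families and lists were chosen with earlier results of these data known.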

Additional observations from a re-analysis of the deposited data

Results flagged for a closer look

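For 5 miRNAs of the cell-type lists the mutant was above WT at one time and below it at the other, by more than the spot SD at both. The log2 ratio was 0.67 at ZT14 and −0.92 at ZT2 for miR-200b, 0.52 and −0.73 for miR-200a, 0.19 and −0.66 for miR-142-3p, 0.19 and −0.59 for miR-143, and −0.21 and 0.84 for miR-451. The sign at ZT14 depended on the processing. miR-451 was at 0.45 with no scaling, 0.30 with the percentile over all mouse miRNAs, 0.63 with spike-in scaling and 0.47 in the authors' table. The medians over the miRNAs on both arrays in those settings were 0.63, 0.48, 0.81 and 0.64, so miR-451 stayed below each. The ZT2 ratios are given in the main scaling only. With normexp, miR-143, miR-200a and miR-200b were at −0.11, −0.20 and −0.16 at ZT14. Normexp added 50 units to every spot, and its median over the miRNAs on both arrays was −0.17, close to those last values. Its sign for dim miRNAs, or their closeness to a median over miRNAs of every brightness, therefore says little about their place among the others. With 1 array per condition, the difference between times was not tested.

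The array also carried probes for viral miRNAs, which no comparison here used. Of these, 3 were called detected on both ZT14 arrays. The signal of mcmv-miR-M23-1-5p was 58.0 units in the mutant and 42.7 in WT, that of mcmv-miR-m88-1 34.2 and 23.3, and that of mghv-miR-M1-2 25.9 and 27.9. After scaling, their ratios were −0.21, −0.10 and −0.77. The mean of the negative control spots was 9.72 units in the mutant and 8.32 in WT.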

How the results depend on the processing

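No paired analysis was possible because the comparison within ZT14 had 1 array per genotype and the labels number no replicates. The count of 12 miRNAs at least 2-fold lower was 6 with no scaling, with the percentile taken over all mouse miRNAs or with spike-in scaling, 7 with quantile normalization, 5 with normexp, 19 with the scanner's summed signal and 6 at a 3-fold threshold, and 21 with undetected miRNAs set to the lowest detected signal (this alternative was chosen after seeing the data). For 0 miRNAs at least 2-fold higher, the count was 9 with no scaling, 5 with the percentile of all miRNAs, 2 with quantile normalization, 22 with spike-in scaling, 18 with the summed signal, 14 in the authors' table and 3 at 1.5-fold. The median of all ratios was 0.63 with no scaling, 0.48 with the percentile over all miRNAs, 0.81 with spike-in scaling, 0.64 in the authors' table and −0.17 with normexp. The 0.19 gap between the brightest and dimmest class was −0.36 with quantile normalization, 0.36 with normexp, −0.24 with the summed signal and −0.040 with detection from spots well above background. The median ratio of repeat-associated minus other miRNAs, −1.01, rests on 6 of 9 miRNAs that only the WT array detected. Those 6 could only be level or lower, so nothing is read from this difference. It was −0.56, −0.43, −0.14 and −1.53 under those 4 settings, −1.32 with the brightest probe, −1.35 in the authors' table, −2.25 for a repeat run in the sequence, and, in alternatives chosen after seeing the data, −2.41 with the lowest detected signal as floor and −2.78 over miRNAs detected on both arrays. The value for a repeat run rests on 4 miRNAs, and that feature was sought among the lower miRNAs. The value over miRNAs detected on both arrays rests on 3 repeat-associated ones. The other 41 of 69 values for these results were within 1.5 times the count, or within 0.14, the median spot SD, of the difference between medians.

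Of the 12 lower miRNAs, miR-574-5p and miR-1187 were at least 2-fold lower in 13 of 13 settings, with ratios from −2.10 to −1.20 and from −2.17 to −1.13. miR-467f, miR-466i and miR-466f-3p were so in 12 of 13, and miR-706 in 10 of 12. The others were less stable: miR-574-3p in 9 of 13, miR-1196 and miR-669c in 8, miR-802 and miR-877* in 6, and miR-466g in 3. miR-802 was at −0.55 with no scaling and −0.37 with spike-in scaling. With the summed signal 6 reversed: 3.53 for miR-466f-3p, 3.69 for miR-466i, 3.28 for miR-467f, 1.81 for miR-706, 0.68 for miR-802 and 0.98 for miR-877*. The cause of these changes was not tested. Signal over background limits the sizes of the dim miRNAs: 85 of 123 had most spots well above background on both ZT14 arrays.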
